A study of Mus musculus with 13 samples.

Results

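Aquaporins are channels that carry water, and in some members glycerol, across cell membranes, and the vasopressin V2 receptor sets the water permeability of the collecting duct. Chromatin accessibility at 8 aquaporin genes and the receptor gene (Aqp1, Aqp2, Aqp3, Aqp4, Aqp5, Aqp6, Aqp7, Aqp11 and Avpr2) was examined in single-nucleus ATAC-seq (snATAC-seq) data of whole mouse kidney. These 9 genes, of 55413 annotated genes, of which 32919 had a peak, were taken by name, and their peaks by position: a peak was assigned to a gene when it overlapped the GENCODE gene body or the 2 kb upstream of it (mm10), which gave 35 of the 300755 deposited peaks. The study compared newborn (P0) with adult wild type kidneys, with 2 samples at P0 (labelled P0, with kidneys of 1-day-old mice named in the protocol), 1 at P21 (3 weeks) and 2 at P56 (8 weeks), and P21 and P56 were grouped as adult. No treatment or genetic change was applied to any group, and the labels do not say how many animals went into a sample, so p-values measure the spread between these 5 samples.

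In the textbook account, AQP1 carries most of the water reabsorbed by the proximal tubule. In the principal cell of the collecting duct, vasopressin binds the V2 receptor, cAMP rises, protein kinase A phosphorylates AQP2, and vesicles that hold AQP2 fuse with the apical membrane; AQP3 lets that water leave through the basolateral membrane. AQP7 passes glycerol in the straight proximal tubule, AQP11 lies in intracellular membranes, AQP6 lies in vesicles of intercalated cells and AQP5 is best known from glands. An open peak is accessible DNA in a nucleus, not a transcript or a protein.

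The sequences below show the start regions at which the results on water transport turn. Aqp2, Aqp5 and Aqp6 are neighbours on chromosome 15 and lie head to tail on the plus strand with GENCODE gene starts at 99579055, 99590782 and 99601400; the RefSeq starts used for the start regions differ from these for Aqp5 and Aqp6. RefSeq (GRCm38.p6, the mm10 build) gave a 300-base start region, 250 bases before and 50 after the start, for 8 of the 9 genes. Capitals mark every match, on either strand, to 8 short motifs: the cAMP response element core TGACGT, the GATA motif AGATAA, the HNF1 core GTTAAT, the HNF4 motif CAAAGTC, the ETS motif AGGAAG, the nuclear receptor core AAGGTCA, the forkhead motif TGTTTA and the grainyhead-like core AACCGG. None of the 8 motifs is contained in another.
Aqp2, chr15:99578806-99579105, plus strand: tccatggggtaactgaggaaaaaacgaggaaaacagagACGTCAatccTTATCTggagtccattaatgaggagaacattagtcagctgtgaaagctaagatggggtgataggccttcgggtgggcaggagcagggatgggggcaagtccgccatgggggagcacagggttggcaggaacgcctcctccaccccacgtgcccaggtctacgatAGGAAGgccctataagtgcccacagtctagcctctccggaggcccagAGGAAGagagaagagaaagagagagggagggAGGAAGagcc
Aqp5, chr15:99590778-99591077, plus strand: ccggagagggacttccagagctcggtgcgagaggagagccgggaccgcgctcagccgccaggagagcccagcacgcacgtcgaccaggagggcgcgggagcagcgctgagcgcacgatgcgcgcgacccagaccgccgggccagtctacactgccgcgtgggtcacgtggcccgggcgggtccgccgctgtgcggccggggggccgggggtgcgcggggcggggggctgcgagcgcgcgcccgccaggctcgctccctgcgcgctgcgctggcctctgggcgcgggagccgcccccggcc
Aqp6, chr15:99600950-99601249, plus strand: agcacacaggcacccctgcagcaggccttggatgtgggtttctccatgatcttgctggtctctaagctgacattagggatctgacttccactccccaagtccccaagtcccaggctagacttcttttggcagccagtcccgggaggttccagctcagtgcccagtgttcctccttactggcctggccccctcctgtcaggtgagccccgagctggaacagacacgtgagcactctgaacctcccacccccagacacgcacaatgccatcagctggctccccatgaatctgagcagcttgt
Avpr2, chrX:73891852-73892151, plus strand: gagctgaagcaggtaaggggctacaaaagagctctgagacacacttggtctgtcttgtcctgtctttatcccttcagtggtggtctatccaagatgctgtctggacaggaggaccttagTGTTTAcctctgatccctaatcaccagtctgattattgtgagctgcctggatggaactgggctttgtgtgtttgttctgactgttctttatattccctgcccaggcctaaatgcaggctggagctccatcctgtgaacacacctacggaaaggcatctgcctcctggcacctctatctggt
Aqp3, intronic peak centre, chr4:41096297-41096596, plus strand: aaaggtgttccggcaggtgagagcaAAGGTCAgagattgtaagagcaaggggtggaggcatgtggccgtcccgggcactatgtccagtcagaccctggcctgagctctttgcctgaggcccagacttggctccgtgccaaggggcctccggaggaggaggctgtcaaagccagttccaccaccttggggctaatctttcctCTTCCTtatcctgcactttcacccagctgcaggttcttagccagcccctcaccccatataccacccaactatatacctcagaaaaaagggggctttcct

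The Aqp2 start region held 1 cAMP response element core, at position 39 from its 5′ end, 1 GATA match at position 49 and 3 ETS matches. A cAMP response element core was found in 7.52% of 32841 RefSeq start regions, a GATA match in 11.2% and an ETS match in 35.4%. The start regions of Aqp5 and Aqp6 held no match to any of the 8 motifs, and that of Avpr2 held 1 forkhead match, which 13.4% of start regions had. The centre of the intronic Aqp3 peak held 1 nuclear receptor core, found in 7.39% of 300681 peak centres of that length, and 1 ETS match, found in 38.1%. A match describes these letters only, and binding was not measured.

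The start regions also differed in CpG dinucleotides, which are dense at many broadly used promoters. The Aqp5 region held 46, the Aqp11 region 27 and the Aqp3 region 21, above the upper quartile of 20 for all start regions. The Aqp2 and Aqp1 regions held 8 each, the Aqp6 region 4 and the Avpr2 region 1, against a median of 7. Aqp7 has 2 start regions in the table, with 0 and 3. Over the 13 clusters the single Aqp5 peak was open in a mean of 0.553% (immune cells) to 5.69% (principal cells) of nuclei. The Aqp11 start peak was open in 8.63% (immune cells) to 30.3% (straight proximal tubule) of nuclei over the 13 clusters.

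The matrix held 28316 nuclei, between 3361 and 7129 per sample, with 16980853 to 43794155 open calls and a median of 3371 to 6737 open peaks per nucleus. The authors' clusters gave 13 main groups with 27652 nuclei: the convoluted (PCT) and straight (PST) parts of the proximal tubule, the loop of Henle (LOH), the tubule of the distal convolution (DCT), the connecting tubule (CNT), principal (PC) and intercalated (IC) cells of the collecting duct, podocytes (Podo), nephron progenitors (NP), endothelium (Endo), immune cells and 2 stromal clusters. Of 28 marker genes checked, 26 had their highest mean share of open nuclei in the cluster they mark. The exceptions were Hsd11b2 and Scnn1g, which were at least as open in CNT as in PC. Sample by sample, Uncx was highest in NP in 5 of 5, but Cited1 in 1 and Six2 in 2. Trpv5 and Calb1 were highest in CNT, and Ptprc in immune cells, in 3 of 5. In the adult samples Six2 was open in 0%, 0% and 1.89% of nuclei of the NP cluster. A total of 477 barcodes occurred in more than 1 library (959 nuclei). The share of nuclei with an open window depends on the number of open peaks per nucleus, so shares were also computed with each nucleus thinned to 1000 open peaks, and stage tests used counts scaled to the total of each sample and cluster. Because the 9 windows differ in length and hold between 1 and 8 peaks, levels were compared between clusters and ages and not between genes.

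The 9 genes fell into a proximal and a distal group by the cluster with the highest share of open nuclei. Aqp1, Aqp4, Aqp7 and Aqp11 were most open in PST, Aqp2, Aqp5 and Avpr2 in PC, and Aqp3 and Aqp6 in IC. These clusters were built by the authors from the same nuclei, so the pattern across clusters is a description; Aqp2 is also a gene by which the study named principal cells. Averaged over the 5 samples, Aqp1 was open in 70.6% ± 11.1 (SD) of PST and 62.7% ± 9.86 of PCT nuclei, and next in NP at 15.1%. The NP share was 8.11% at P0 and 19.7% in adult. At P0 alone PC came next after PST and PCT, at 13.3%. Aqp7 was open in 48.7% ± 10.8 of PST and 33.0% ± 8.44 of PCT nuclei, and Aqp11 in 44.0% ± 9.97 and 38.8% ± 7.99. In each of the 5 samples PST lay above PCT for these 3 genes, but PST nuclei also had the higher median of open peaks in each sample (5398.5 to 12173, against 4206 to 7466 in PCT). After thinning, PCT stood first for Aqp1 (14.5% against 13.1%) and for Aqp11 (7.66% against 6.73%), with overlapping SDs, and PST stayed first for Aqp7 (7.96% ± 1.35 against 6.43% ± 1.32), though in 3 of 5 samples only, since PCT stood first in both P0 samples. Aqp4 was open in 29.4% ± 15.6 of PST, 17.0% ± 2.36 of PC and 13.2% ± 2.72 of PCT nuclei. Thinned Aqp4 values were 4.16% ± 2.02 in PST and 3.44% ± 1.07 in PC, and at P0 alone PC stood first (2.46% against 2.33%). For Aqp5, thinned values at P0 put CNT first (1.12% against 0.719% in PC).

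**Figure D1:**
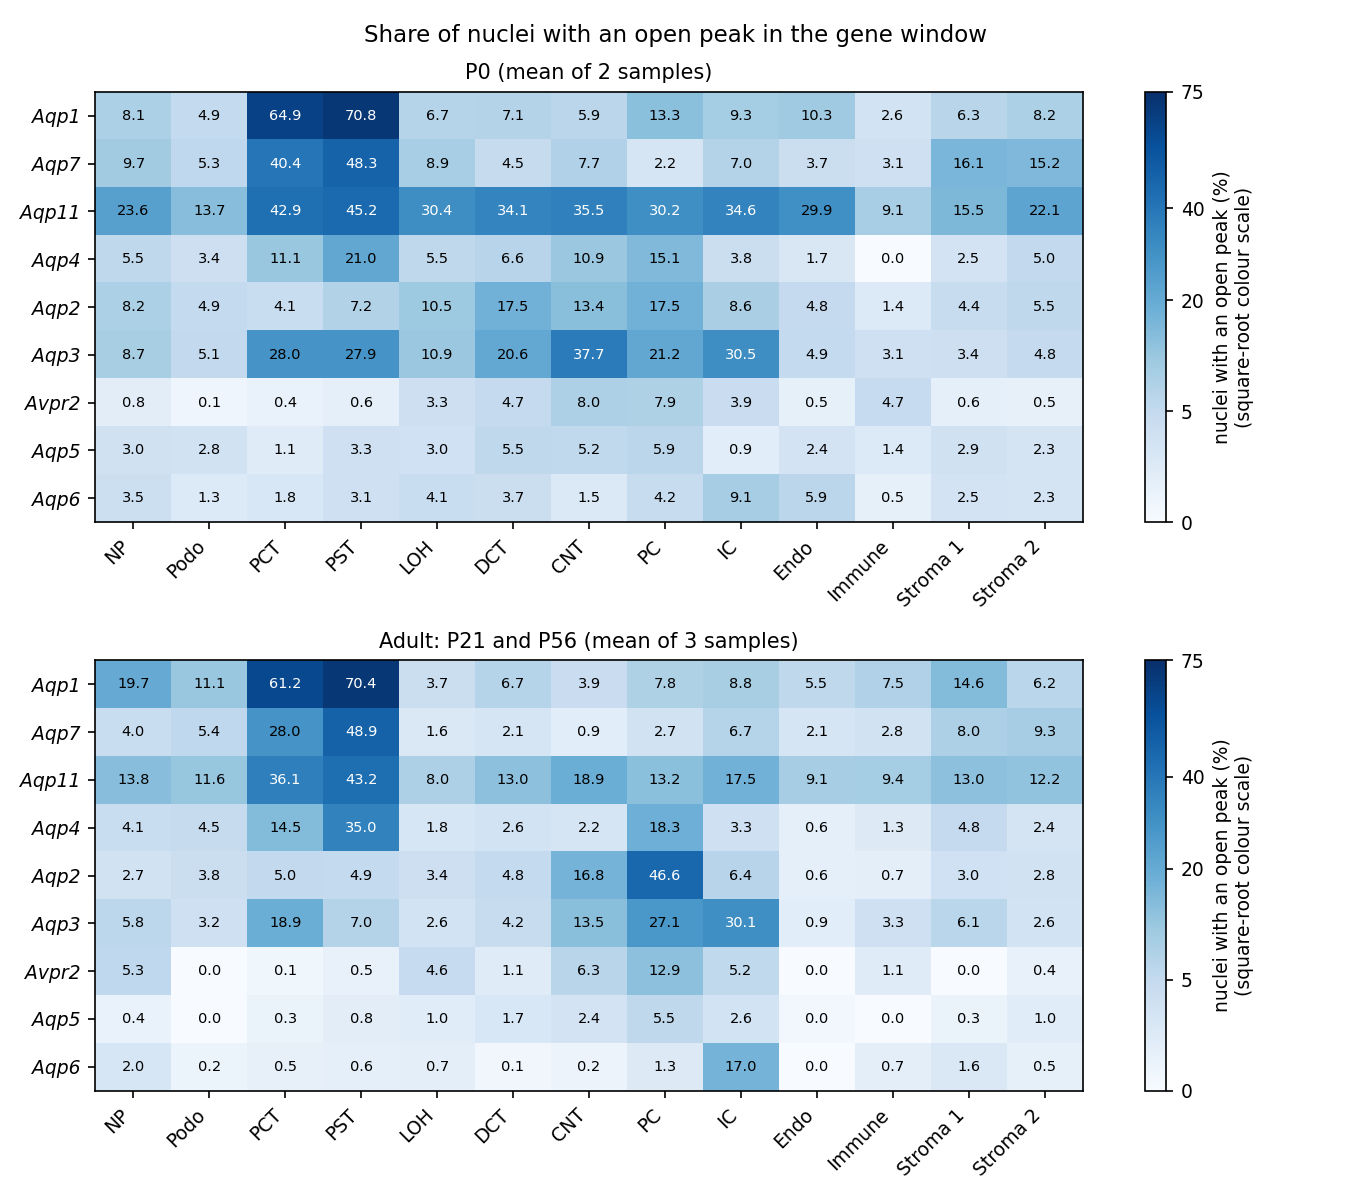
Share of nuclei (%) with at least 1 open peak in the window of each gene (rows) in 13 clusters (columns), as the mean of the 2 P0 samples (top) and of the 3 adult samples (bottom), not adjusted for depth, with a square-root colour scale. Aqp2 in PC stood at 17.5% at P0 and 46.6% in adult, while Aqp1 in PST stood at 70.8% and 70.4%.

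In the distal group, Aqp2 was open in 34.9% ± 19.8 of PC nuclei, followed by CNT at 15.4% ± 4.38 and DCT at 9.91% ± 7.50. PC stood above CNT in 5 of 5 samples. At P0 alone PC and DCT could not be told apart, at 17.5% ± 3.93 and 17.5% ± 2.55, and thinned values put DCT first (2.86% against 2.35%). In adult samples alone PC stood first in 3 of 3 samples, at 46.6% ± 16.3 against 16.8% ± 5.39 in CNT, and also after thinning, at 10.9% ± 1.50 against 3.90% ± 0.441. Avpr2 was open in 10.9% ± 3.26 of PC and 7.02% ± 2.89 of CNT nuclei. At P0 the receptor was as open in CNT (8.03% ± 0.161) as in PC (7.85% ± 1.81). In PCT, PST, Podo, Endo and both stromal clusters its mean share was at most 0.514%. Aqp6 was open in 13.9% ± 7.20 of IC nuclei and in 2.60% in the next cluster, NP. At P0 alone the next cluster was Endo, at 5.94% against 9.11% in IC, and after thinning these were 0.809% and 0.930%, with IC first in 1 of 2 samples. Aqp3 was spread over IC (30.3% ± 7.75), PC (24.7% ± 13.2), CNT (23.2% ± 13.9) and PCT (22.5% ± 5.93), SDs that pool both ages. CNT stood first at P0, at 37.7% ± 8.28 against 30.5% ± 2.78 in IC, though in P0 sample 1 IC lay above CNT (32.5% against 31.9%). After thinning CNT stood first in 2 of 2 samples. In adult samples CNT was at 13.5% ± 1.03, below each adult IC value (18.6% to 39.9%).

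Opening with age was then compared within each cluster with edgeR's quasi-likelihood test on open nuclei, fitted over all genes, with Benjamini-Hochberg adjusted p-values and a threshold of 0.05. Positive log2 fold changes are higher in adult. Of the 117 pairs of gene and cluster, 59 had enough open nuclei to be tested, and all 9 genes were tested in at least 1 cluster. In PC, 5 of 7 members tested were called (4 higher in adult and 1 higher at P0), against 28.9% of all genes in PC, and in LOH 5 of 9, against 54.0%. In CNT 3 of 5 were called, against 22.0% of genes, and in Endo 3 of 6, against 30.4%. The 3 windows called in Endo had fewer than 10 open nuclei in every adult sample. They passed the filter on low counts through the P0 samples, where they were higher, so their count is a description. In PST 2 of 6 were called (9.56% of genes), in PCT 1 of 8 (24.9%), in NP 1 of 2 (33.1%) and in Stroma 1 1 of 3 (26.7%). No member was called in Stroma 2 (0 of 6, against 40.0% of genes), Podo (0 of 2, 6.91%) or DCT (0 of 1, 2.49%) by edgeR or by DESeq2, with 0, 1 and 1 members at an unadjusted p under 0.05. Altogether 21 pairs were called in 8 genes, 9 higher in adult and 12 higher at P0, and Aqp5 was the gene without a call. With DESeq2 in place of edgeR, 9 of the 21 calls were kept: Aqp2 in PC, Aqp1 in NP and Stroma 1, Aqp3 in LOH and PST, Aqp7, Aqp11 and Avpr2 in LOH, and Aqp6 in Endo.

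**Figure D2:**
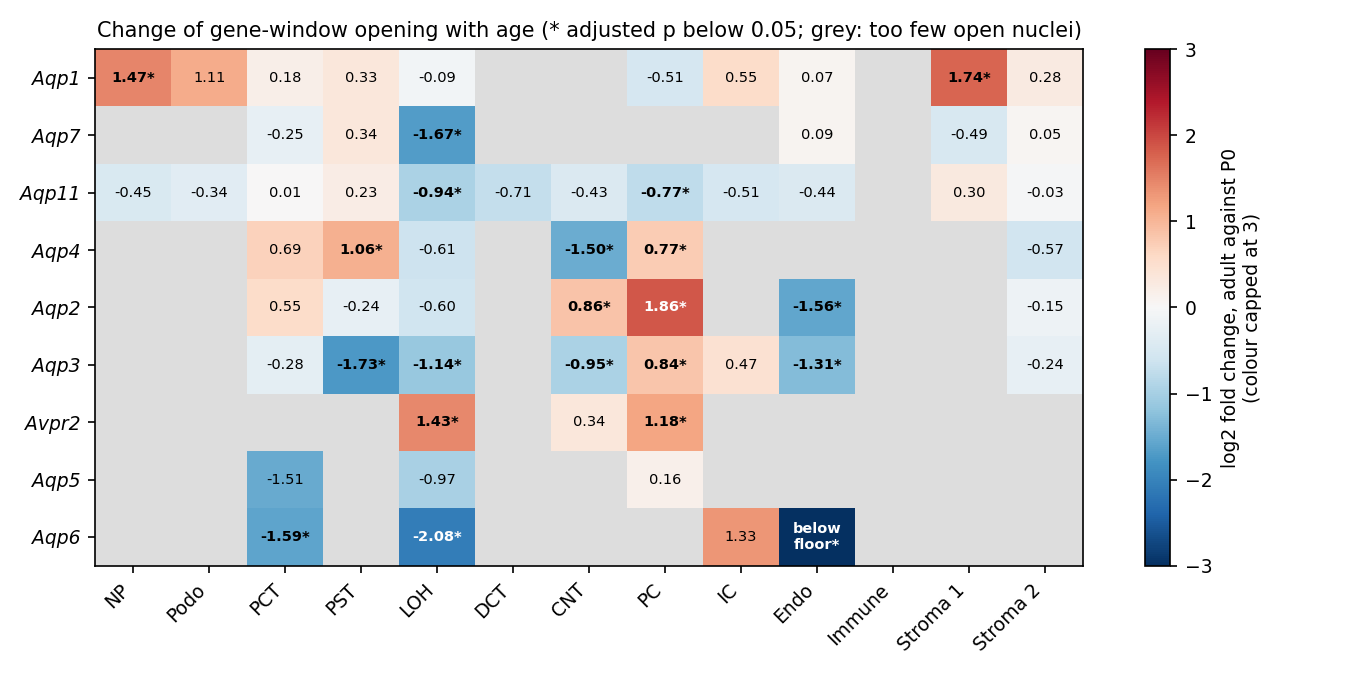
Log2 fold change of adult against P0 for each gene (rows) and cluster (columns) from edgeR's quasi-likelihood test, with asterisks where the adjusted p was below 0.05 and grey where too few nuclei were open for a test. In the PC column Aqp2, Aqp3, Aqp4 and Avpr2 were higher in adult and Aqp11 lower, and Aqp6 in Endo is marked as below the floor because no adult nucleus was open.

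The Aqp2 window in PC had the smallest p of the 59 tests. It was open in 14.7% and 20.3% of PC nuclei in P0 samples 1 and 2, in 48.5% at P21, and in 29.3% and 61.8% in P56 samples 1 and 2. The P0 and adult samples did not overlap. Of the adult samples, P56 sample 1 had the lowest share and a median of 2839.5 open peaks per PC nucleus, and P56 sample 2 the highest share and a median of 6028. In CPM, open nuclei scaled to the summed open gene windows of the sample and cluster with TMM factors (called normalised levels below), they were 26.0 and 31.9 at P0 and 102.2, 103.0 and 106.3 in the 3 adult samples, close to each other at P21 and P56. The log2 fold change was 1.86 ± 0.15 (SE, adjusted p = 2.32e-06, edgeR). It kept its direction and its call in each of the 14 other settings and reduced sample sets, from 1.68 to 2.19.

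**Figure D3:**
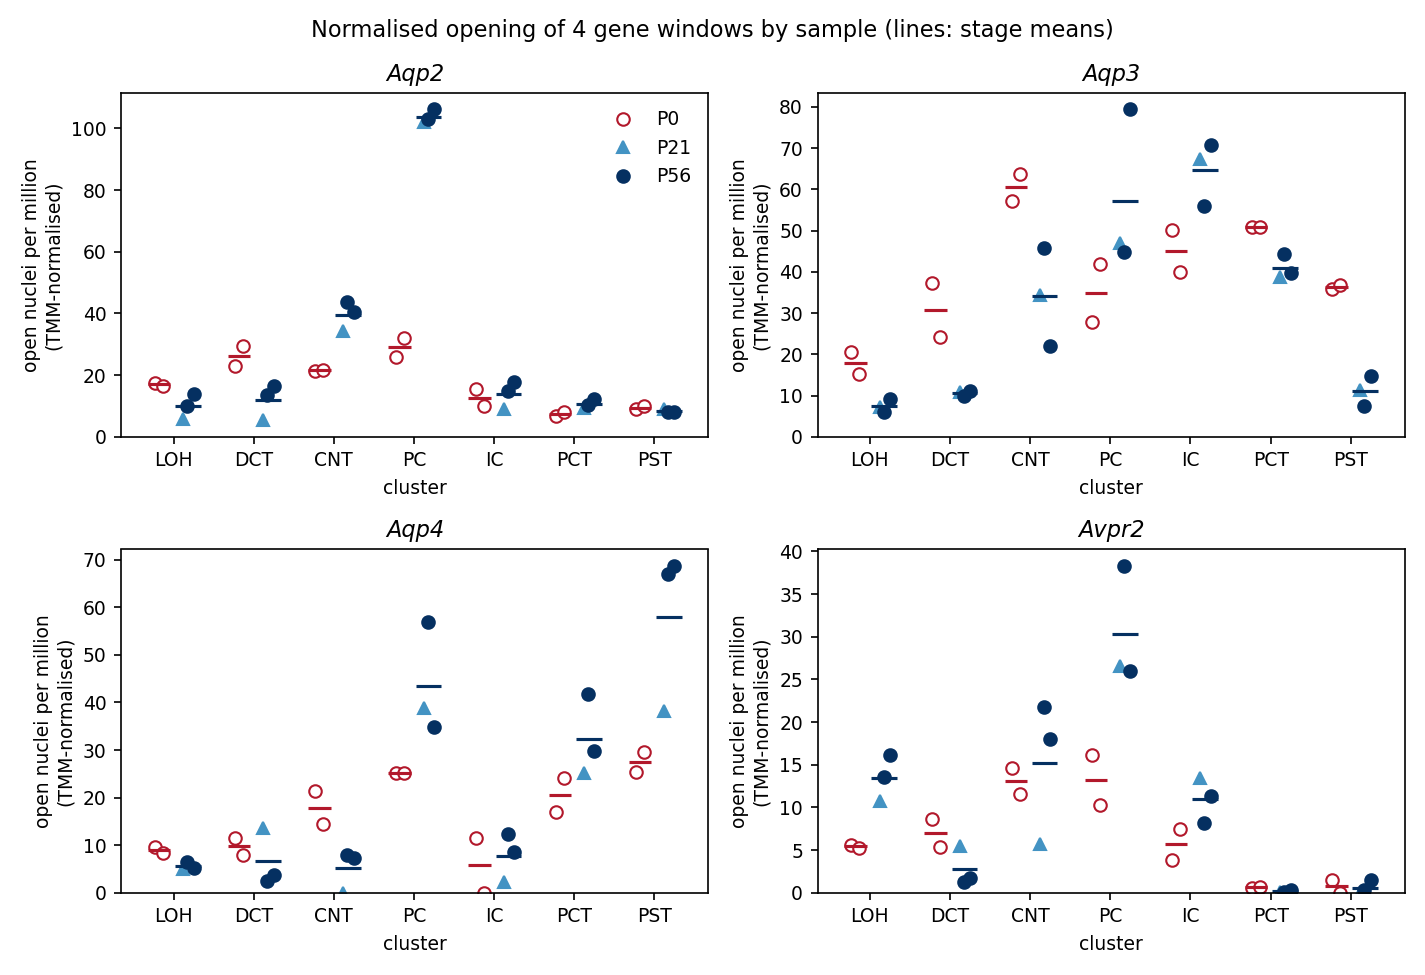
TMM-normalised level (CPM of open nuclei; vertical axis, linear, from 0) for 4 genes in 7 clusters, 1 point per sample (open circles P0, triangles P21, filled circles P56) with stage means as lines. The adult Aqp2 points in PC sit between 102.2 and 106.3, above all other points of that gene.

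Both peaks of Aqp2 moved in PC. The start peak, chr15:99578527-99579477, covers the gene start, the 5′ end of the coding sequence and the printed region with the cAMP response element core. It was open in 11.2% and 14.6% of PC nuclei in the P0 samples, 46.6% at P21, and 27.4% and 58.5% at P56, a log2 fold change of 2.22 ± 0.19 (adjusted p = 9.06e-08, edgeR), and the groups did not overlap. With no filter on low counts, which adds many peaks to the adjustment, the value was 2.11 (adjusted p = 0.248). The second peak, chr15:99583620-99584505, covers the last coding exon and the 3′ end of the gene. It was open in 4.82% and 7.14% of PC nuclei at P0 and 5.83%, 3.76% and 16.5% in adult samples, which overlapped, with a log2 fold change of 1.03 ± 0.36 (adjusted p = 0.0343). That call was lost without P0 sample 1 (0.74, adjusted p = 0.465), P0 sample 2 (1.11, 0.227) or P56 sample 2 (0.45, 0.562). In PC, 7 of 12 member peaks tested were called, against 29.4% of all peaks. With no filter on low counts all 7 of these calls were lost, as were 11 of the 24 peak calls in other clusters.

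In adult samples the start peak of Aqp2 was most open in PC and next in CNT. In these samples its mean share was 44.2% in PC, 12.0% in CNT, 2.61% in IC and at most 1.08% in the other 10 clusters. The second peak had no such preference, at 8.70% in adult PC and between 0.419% and 5.69% in the other 12 clusters. At P0 the start peak stood at 12.9% in PC, 9.77% in CNT and 5.47% in DCT, and the second peak was at its highest in DCT (12.0%). The DCT share at P0 rests on 51 and 57 nuclei, and neither Aqp2 peak could be tested there.

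In CNT the Aqp2 window rose with age by 0.86 ± 0.29 on the log2 scale (adjusted p = 0.0386), from normalised levels of 21.3 and 21.7 at P0 to 34.3, 43.6 and 40.6 in adult. The call was lost without P0 sample 1 (0.83, adjusted p = 0.285), P0 sample 2 (0.88, 0.206), P21 (0.89, 0.0585) or P56 sample 2 (0.87, 0.0562), and the change was 0.11 with a 10 kb upstream window. A test of the difference between the changes in PC and CNT gave 0.93 ± 0.32 (adjusted p = 0.109), which missed the threshold. Against LOH, where the Aqp2 window went from normalised levels of 17.5 and 16.6 to 5.76, 10.0 and 13.8, the change in PC was larger by 2.40 ± 0.25 (adjusted p = 9.40e-13). In that comparison of PC with LOH, 19.9% of all genes differed, and in the comparison of PC with CNT 4.43%.

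Avpr2, whose product starts the vasopressin signal in principal cells, rose in PC and LOH. In PC its window was open in 9.14% and 6.57% of nuclei in the P0 samples, 12.6% at P21, and 10.9% and 15.1% at P56, so the groups did not overlap. Normalised levels were 16.2 and 10.3 at P0 and 26.6, 38.3 and 26.0 in adult, a log2 fold change of 1.18 ± 0.29 (adjusted p = 0.00548, edgeR). Without P0 sample 2 the change was 0.89 (adjusted p = 0.137), with DESeq2 1.20 (0.0629) and with a 10 kb upstream window 0.50 (0.0179). In LOH the shares were low, at 3.15% and 3.53% at P0 and 3.81%, 3.26% and 6.85% in adult, but LOH nuclei were shallower in adult, and the scaled levels went from 5.55 and 5.30 to 10.8, 13.6 and 16.1, a change of 1.43 ± 0.31 (adjusted p = 0.00268). The LOH change was 1.43 without P0 sample 1 (adjusted p = 0.0544) and 1.37 without P0 sample 2 (0.0579), and 0.22 (0.286) with a 10 kb upstream window. The change in PC did not differ detectably from that in LOH (difference -0.26 ± 0.38, adjusted p = 0.694) or in CNT (0.76 ± 0.49, 0.498).

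Both Avpr2 calls came from 1 peak, chrX:73891379-73892093, which ends before the Avpr2 start at 73892102 and overlaps part of the printed start region. It was open in 7.61% and 5.71% of PC nuclei at P0 and 11.7%, 7.89% and 12.3% in adult (1.10 ± 0.32, adjusted p = 0.0121), and the groups did not overlap. Without P0 sample 1 or 2 the call was lost (1.37, adjusted p = 0.0931, and 0.78, 0.366). In LOH the same peak rose by 1.54 ± 0.34 (adjusted p = 5.17e-04). Both Avpr2 peaks also lie inside the annotated bodies of Arhgap4 and L1cam, so an opening there cannot be assigned to Avpr2 alone. The second peak, in the coding exon, was too sparse for a test in any cluster.

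Aqp3, the basolateral exit channel, moved in opposite directions along the tubule. In PC it was open in 15.7% and 26.6% of nuclei at P0 and 22.3%, 12.8% and 46.2% in adult, shares that overlapped. The normalised levels, 27.8 and 41.8 at P0 and 47.0, 44.9 and 79.5 in adult, did not overlap, and the log2 fold change was 0.84 ± 0.23 (adjusted p = 0.0117). Without P0 sample 1 it was 0.53 (adjusted p = 0.280), and without P56 sample 2, the deepest adult sample, it was 0.40 (0.285). In CNT the shares fell from 31.9% and 43.6% to 14.5%, 13.6% and 12.4%, with a log2 fold change of -0.95 ± 0.28 (adjusted p = 0.0171). The CNT call was lost without P0 sample 1 (-1.02, adjusted p = 0.0925), P0 sample 2 (-0.85, 0.144), P21 (-0.98, 0.0505) or P56 sample 2 (-0.56, 0.107).

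The difference between these changes was itself called, at 1.81 ± 0.26 (adjusted p = 8.25e-08), and it was 0.94 (0.157) without P56 sample 2. Against LOH, where Aqp3 fell by 1.14 ± 0.29 on the log2 scale (adjusted p = 0.00701, and 0.141 without P0 sample 1), the PC change was larger by 1.96 ± 0.28 (adjusted p = 4.38e-08). In IC, where Aqp3 was open in 32.5% and 28.6% of nuclei at P0 and 31.9%, 18.6% and 39.9% in adult, the change of 0.47 ± 0.26 did not pass the test (adjusted p = 0.525). The normalised levels in IC, 50.18 and 40.05 at P0 and 67.4, 55.9 and 70.8 in adult, did not overlap. Of 16296 genes tested in IC, 0 were called, so the missing call does not set IC apart from PC.

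In the proximal tubule Aqp3 was lower in adult. PST nuclei were open in 28.9% and 26.8% at P0 and in 5.64%, 3.35% and 12.0% in adult, groups far apart, with a log2 fold change of -1.73 ± 0.36 (adjusted p = 0.00599). Without either P0 sample it was -1.72 (adjusted p = 0.0867) and -1.71 (0.123). In PCT the change was -0.28 ± 0.13 (adjusted p = 0.135), and the difference between PCT and PST was 1.37 ± 0.30 (adjusted p = 0.0142), a comparison in which 2.49% of all genes differed; it was 1.40 (0.0665) and 1.38 (0.0927) without P0 samples 1 and 2.

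Both larger Aqp3 peaks were called in PST and otherwise in different clusters, and the difference between the peaks was not tested. The start peak, chr4:41097514-41099044, fell in CNT (-1.18 ± 0.30, adjusted p = 0.00643), LOH (-1.25 ± 0.33, 0.00262) and PST (-1.52 ± 0.43, 0.0290). The intronic peak, chr4:41096147-41096748, whose centre with the nuclear receptor core is printed above, rose in PC (0.98 ± 0.29, adjusted p = 0.0115) and fell in PST (-2.52 ± 0.56, 0.00959) and PCT (-0.70 ± 0.22, 0.0267). In PC, CNT, LOH, PST and IC both peaks had changes of the same sign. It was open in 7.61% and 14.6% of PC nuclei at P0 and 12.6%, 7.52% and 26.9% in adult, which overlap before scaling. In PST it stood at 12.0% and 13.4% at P0 and 2.26%, 0.609% and 3.27% in adult, with no overlap. The PC rise was lost without P0 sample 1 (0.56, adjusted p = 0.429) or P56 sample 2 (0.62, 0.238). The CNT fall of the start peak was lost without P0 sample 1 (-1.10), P0 sample 2 (-1.02) or P56 sample 2 (-0.74), with DESeq2 (-1.13) and with no filter (-0.75). Its LOH fall was lost without P0 sample 1 (-1.165), and its PST fall without P0 sample 1 (-1.35) or 2 (-1.45) and with no filter (-0.87). The falls of the intronic peak were lost without P0 sample 1 or 2, in PST at -2.53 and -2.23 and in PCT at -0.51 and -0.82, and the PCT fall also with DESeq2 (-0.69) and with no filter (-0.32). In CNT 2 of 7 member peaks were called (22.6% of all peaks), in LOH 6 of 14 (54.3%), in PST 3 of 16 (16.0%) and in PCT 4 of 25 (33.9%). The third Aqp3 peak, in the 3′ exon, was open in 4.98% of IC nuclei and at most 1.20% elsewhere, too few for a test.

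**Figure D4:**
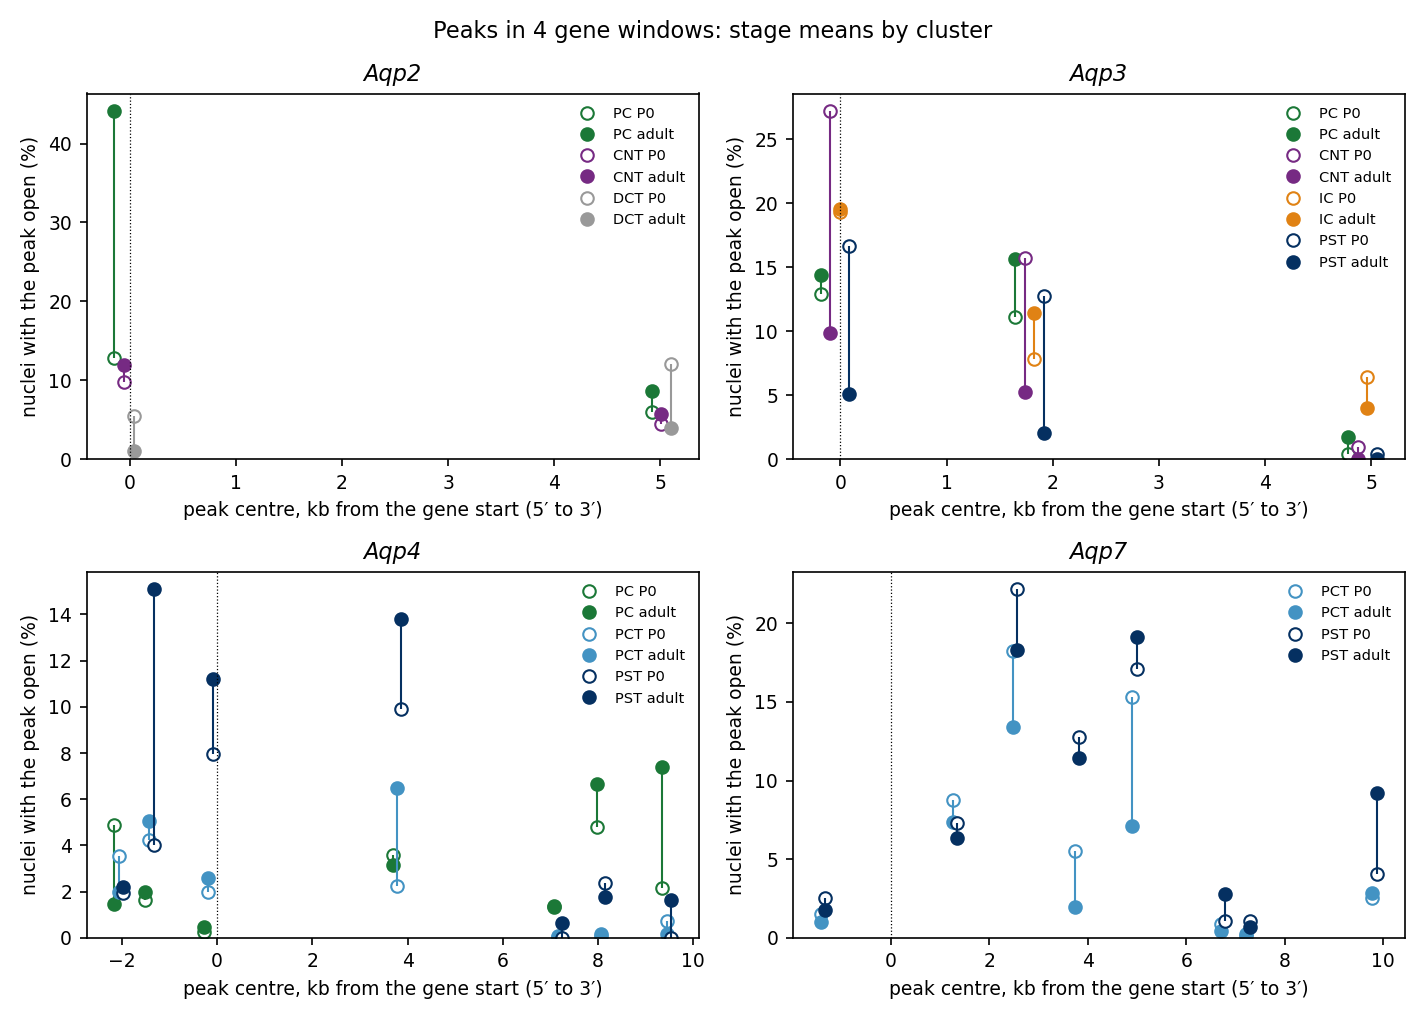
Mean share of nuclei (%) with each peak open against the distance of the peak's centre from the gene start (kb, in the direction of transcription) for 4 genes; open circles are P0 (2 samples), filled circles adult (3 samples), clusters are offset sideways by under 0.2 kb so that points can be told apart. The rise in PC at Aqp2 sits at the start peak (12.9% to 44.2%), and that at Aqp4 at the most distant peak.

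Aqp4, the second basolateral water channel of principal cells, rose in PC and PST and fell in CNT. In PC it was open in 14.2% and 16.0% of nuclei at P0 and 18.4%, 16.2% and 20.3% in adult, a narrow step without overlap. Scaled to depth, the levels were 25.1 and 25.2 at P0 and 38.9, 56.8 and 34.9 in adult (0.77 ± 0.22, adjusted p = 0.0142). The PC call was lost without P0 sample 1 (0.77, adjusted p = 0.144), P0 sample 2 (0.77, 0.127) or P56 sample 1 (0.55, 0.0515). In CNT it was open in 11.9% and 9.90% at P0 and in 0 of 83 nuclei at P21, which allows up to 3.61%, and 2.38% and 4.14% at P56 (-1.50 ± 0.51, adjusted p = 0.0390). Without P0 sample 1, P0 sample 2 or P21 that call was lost (-1.24, adjusted p = 0.423; -1.77, 0.123; -1.29, 0.0630).

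The difference between the PC and CNT changes of Aqp4 was 2.19 ± 0.48 (adjusted p = 6.76e-04, and 1.92, 0.196, without P0 sample 1), and between PC and LOH 1.39 ± 0.35 (adjusted p = 0.00160, and 1.36, 0.0532, without P0 sample 1). In PST the shares were 20.5% and 21.4% at P0 and 18.8%, 30.1% and 56.1% in adult, with P21 below both P0 values before scaling. The change was 1.06 ± 0.27 (adjusted p = 0.0186), and the call was lost without P0 sample 1 (1.00, adjusted p = 0.191), P0 sample 2 (1.18, 0.164) or P56 sample 2 (0.91, 0.0758).

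Different Aqp4 peaks were open in the proximal tubule and in PC. The 7 peaks had centres from -2068 to 9443 bp of the gene start. In PST the peaks centred at -1428, -184 and 3779 bp were open in 10.7%, 9.90% and 12.2% of nuclei, and in PC in 1.83%, 0.396% and 3.34%. The peaks at 8067 and 9443 bp were open in 5.91% and 5.31% of PC nuclei and in 2.02% and 0.991% of PST nuclei. The most distant peak rose in PC from 1.78% and 2.57% at P0 to 7.77%, 4.51% and 9.91% in adult, with no overlap (2.18 ± 0.43, adjusted p = 5.14e-04, 1.96, 0.0527, without P0 sample 1, and 2.09, 0.248, with no filter). The peak at -1428 bp rose in PST (2.03 ± 0.58, adjusted p = 0.0303), from 3.61% and 4.46% to 4.89%, 11.3% and 29.1%, and lost its call without P0 sample 1 (1.96, adjusted p = 0.245), P0 sample 2 (2.41, 0.235) or P56 sample 2 (1.67, 0.0669). The intronic peak at 3779 bp rose in PCT from 1.83% and 2.69% to 6.06%, 6.87% and 6.53% (1.92 ± 0.36, adjusted p = 0.00162, and 1.52, 0.0551, without P0 sample 1). All Aqp4 peaks but the most distant overlap the annotated body of AC133525.2, a transcript whose reads cannot be told apart from those of Aqp4 here. The peak at 8067 bp covers a transcript start of Aqp4 and also one of AC133525.2. The peak at 7161 bp was too sparse for a test.

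Aqp1, the constitutive channel of the proximal tubule, did not pass the test with age in the clusters where it was most open. PST nuclei were open in 74.7% and 67.0% at P0 and 74.4%, 53.6% and 83.3% in adult, and PCT nuclei in 63.4% and 66.4% and in 60.0%, 48.3% and 75.3%. These shares overlapped. The normalised levels in PST, 92.73 and 92.25 at P0 and 151.1, 119.1 and 101.9 in adult, did not overlap. In PCT they were 106.5 and 131.7 at P0 and 126.0, 140.1 and 130.8 in adult, which overlapped. The log2 fold changes were 0.33 ± 0.24 in PST (95% interval -0.14 to 0.80, adjusted p = 0.435) and 0.18 ± 0.13 in PCT (-0.08 to 0.45, 0.329). Both the start peak, chr6:55336013-55336715, and an intronic peak, chr6:55338069-55338740, were open in PST (50.1% and 45.5%) and PCT (41.0% and 42.4%), and the other 3 peaks in at most 4.72% of nuclei of any cluster.

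Where Aqp1 did change, it was in clusters where few nuclei were open. It rose in NP, from 7.46% and 8.76% to 21.2%, 7.78% and 30.2% (1.47 ± 0.34, adjusted p = 1.01e-04), and in Stroma 1, from 5.07% and 7.54% to 15.6%, 7.48% and 20.8% (1.74 ± 0.34, 1.08e-04). With 500 bp around the gene start the Stroma 1 value was 1.04 (adjusted p = 0.104). In both clusters P56 sample 1 lay among the P0 values before scaling. Tubule markers were also called higher in these clusters. In NP, both LOH markers (Umod by 1.69 and Slc12a1 by 0.93 on the log2 scale) and 1 of 2 DCT markers, Slc12a3 (1.91), rose, while the other, Pvalb, was too sparse for a test and went from 3.97% and 5.37% to 0% in the 3 adult samples. The Slc12a3 window was open in a mean of 91.3% of DCT and 68.7% of PST nuclei, so it does not mark DCT alone. In Stroma 1, 1 of 2 LOH markers (Umod by 3.03), 1 of 2 DCT markers (Slc12a3 by 1.87) and 1 of 2 PCT markers (Slc34a1 by 1.19) rose, while 1 of 3 IC markers, Atp6v0d2, fell by 1.05. The 2 LOH markers summed to 19.6% of NP nuclei at P0 and between 28.9% and 56.6% in adult, and the 2 DCT markers to between 16.1% and 21.1% and between 26.9% and 60.4%. In Stroma 1 the 2 DCT markers summed to between 11.6% and 16.1% of nuclei at P0 and between 25.2% and 42.6% in adult, whereas the sums of the 2 LOH markers (7.39% to 10.8% and 6.54% to 29.7%) and of the 2 PCT markers (11.2% to 13.2% and 9.35% to 31.7%) overlapped. The 2 PCT markers summed to between 13.7% and 16.7% of NP nuclei at P0 and between 7.78% and 24.5% in adult, which overlapped. The part of these markers in the result was not tested. Adult nuclei of the NP cluster were also low in the 3 NP markers, whose summed share was 76.6% to 92.9% at P0 and 5.77% to 15.1% in adult. At the peak level the start peak rose in NP (1.36 ± 0.37, adjusted p = 8.68e-04, and 1.05, 0.122, without P0 sample 2 and 0.49, 0.377, with no filter) and Stroma 1 (1.07 ± 0.45, 0.0482), and the intronic peak in Endo (2.36 ± 0.66, 0.00808) and Stroma 2 (1.68 ± 0.53, 0.0100). Without P0 sample 1 the adjusted p was 0.690 for the Stroma 1, 0.170 for the Endo and 0.240 for the Stroma 2 peak, and without P0 sample 2 it was 0.453 and 0.166 for the stromal peaks. Without P56 sample 2 the stromal values were 0.66 (0.453) and 1.16 (0.0888), and without P21 the Stroma 1 value was 1.15 (0.0514). In NP 2 of 2 member peaks were called, against 39.6% of peaks, in Stroma 1 2 of 3 (37.8%), in Stroma 2 1 of 7 (50.2%) and in Endo 4 of 7 (31.4%).

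Aqp7, the glycerol channel, did not pass the test in the proximal tubule and fell in LOH. In PST it was open in 45.8% and 50.9% of nuclei at P0 and 37.6%, 43.1% and 65.9% in adult (0.34 ± 0.19, adjusted p = 0.293), and in PCT in 41.9% and 39.0% against 26.0%, 22.3% and 35.8% (-0.25 ± 0.13, adjusted p = 0.175). The difference between PCT and PST was -0.63 ± 0.17 (adjusted p = 0.0572) and missed the threshold. In LOH the window fell from 7.87% and 9.97% to 2.28%, 0.480% and 2.10% (-1.67 ± 0.37, adjusted p = 0.00322), and with a 10 kb upstream window the value was -0.53 (0.0517). In PC the window was open in 7, 9, 3, 1 and 10 nuclei of the 5 samples and in CNT in 10, 8, 1, 2 and 2, and the difference between the 2 changes, 3.29 ± 1.01 (adjusted p = 0.0312), rests on these few nuclei; it was lost without P0 sample 1 (3.00, 0.434), P0 sample 2 (3.50, 0.178) or P21 (3.45, 0.0654), with DESeq2 (3.11, 1.0) and with a 10 kb upstream window (0.48, 0.320).

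Among the 8 Aqp7 peaks none covered the annotated gene start. The most open one, chr4:41045305-41045845, covers the start of another Aqp7 transcript and was open in 19.9% of PST and 15.3% of PCT nuclei. Intronic peaks at 3828 and 4998 bp from the gene start fell in PCT, from 6.76% and 4.31% to 1.35%, 1.30% and 3.26% (-1.12 ± 0.36, adjusted p = 0.0281) and from 17.2% and 13.5% to 6.83%, 5.73% and 8.75% (-0.73 ± 0.20, 0.0137). Without P0 samples 1 and 2 these were -0.94 (adjusted p = 0.256) and -1.24 (0.103), and -0.71 (0.161) and -0.71 (0.145). The peak at 4998 bp also fell in LOH (-2.92 ± 0.54, adjusted p = 6.84e-05). The peak at 6795 bp was not proximal: its mean share was 7.97% in Stroma 2 and 5.87% in Stroma 1, and at most 2.10% elsewhere. In Stroma 1 it fell from 10.9% and 13.4% to 2.22%, 2.80% and 0% (-2.28 ± 0.55, adjusted p = 3.43e-04, and -1.36, 0.0827, without P56 sample 2). The peak at 7303 bp was too sparse for a test.

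Aqp11, an intracellular aquaporin, was open in all 13 clusters and fell with age in LOH and PC. In LOH it was open in 28.7% and 32.2% of nuclei at P0 and 7.36%, 7.01% and 9.72% in adult, far apart, and the scaled change was -0.94 ± 0.18 (adjusted p = 0.00125). In PC it was open in 27.9% and 32.6% at P0 and 15.5%, 9.02% and 15.1% in adult (-0.77 ± 0.19, adjusted p = 0.00610). The PC call was lost without P0 sample 1 (-0.80, adjusted p = 0.0848), P0 sample 2 (-0.75, 0.0938) or P56 sample 2 (-0.64, 0.0644). In PCT and PST the changes were 0.01 ± 0.12 (95% interval -0.22 to 0.25) and 0.23 ± 0.18 (-0.12 to 0.58), and neither was called. Its start peak, chr7:97737538-97738647, was called lower in NP, LOH, CNT, PC and Endo, by 0.60 (Endo) to 1.10 (CNT) on the log2 scale, and an intronic peak, chr7:97735104-97735554, in LOH (-1.35 ± 0.34, adjusted p = 0.00174) and PC (-0.98 ± 0.36, 0.0403). Of these 7 peak calls the LOH call of the intronic peak was kept without any 1 sample; without 1 sample the other 6 ran from -1.14 to -0.52, and each was lost in at least 1 case.

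Aqp5, the neighbour between Aqp2 and Aqp6, was open in 5.58% and 6.29% of PC nuclei at P0 and in 8.74%, 2.63% and 5.19% in adult, which overlapped. Its change of 0.16 ± 0.39 did not pass the test (95% interval -0.60 to 0.93, adjusted p = 0.776). With a 10 kb upstream window, which reaches into the Aqp2 gene body but not to the Aqp2 start peak, the value was 1.51 (adjusted p = 1.52e-05).

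Aqp6 was open in IC at both ages. The window was open in 3 of 40 and 6 of 56 IC nuclei at P0 (7.50% and 10.7%) and in 17.0%, 9.05% and 25.0% in adult. The change of 1.33 ± 0.45 did not pass edgeR's test (adjusted p = 0.260), with 40 and 56 nuclei at P0; it was 1.50 (adjusted p = 0.0366) without P56 sample 1. In IC 4 members were tested and none was called by edgeR or DESeq2, and 1 had an unadjusted p under 0.05; of all 16296 genes tested in IC, 0.0% were called. The start peak of Aqp6, chr15:99601184-99601830, was open in 11.6% of IC nuclei and at most 1.59% in the other 12 clusters, and the second, in a coding exon, in 3.07% and at most 1.27%, too sparse for a test.

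Aqp6 fell with age in Endo, LOH and PCT. In Endo it was open in 33 of 592 and 26 of 412 nuclei at P0 (5.57% and 6.31%) and in none of the 1364 adult nuclei, which allows a share of up to 0.220%. On the CPM scale the level at P0 was at least 10.6-fold higher than in adult, with 3 nuclei over the adult group as the floor (adjusted p = 3.98e-04, edgeR). With a 10 kb upstream window, which takes in further peaks, the fitted change was -1.56 (0.00151). The third peak, at the 3′ end of the gene (chr15:99603995-99604443), accounted for 50 of the 59 open P0 nuclei (at least 9.01-fold higher, adjusted p = 3.24e-04), and not the start peak that was open in IC. Counting intervals and floors cover counting error only. In LOH the window fell by 2.08 ± 0.57 on the log2 scale (adjusted p = 0.00942) and in PCT by 1.59 ± 0.42 (0.0226), with shares of at most 4.60% in any sample. The LOH call was lost without P0 sample 1 (-2.06, adjusted p = 0.0783), P0 sample 2 (-1.93, 0.102) or P56 sample 2 (-1.44, 0.0528) and the PCT call without P0 sample 1 (-1.38, 0.271) or 2 (-1.74, 0.117). The start peak fell in LOH by 1.64 ± 0.57 (adjusted p = 0.0165), and was -1.21 (0.354) without P0 sample 2 and -1.08 (0.135) without P56 sample 2.

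Endo held 2 further calls, both of windows that passed the filter on low counts through the P0 samples. Aqp2 went from 4.90% and 4.61% of nuclei to 0 of 221 (up to 1.36% allowed), 0.562% and 1.16% (-1.56 ± 0.55, adjusted p = 0.0401). Its second peak was called there (-1.67 ± 0.59, adjusted p = 0.0328), and its start peak was too sparse for a test. Aqp3 went from 5.57% and 4.13% to 0.905%, 0.562% and 1.16% (-1.31 ± 0.48, adjusted p = 0.0475). Each was lost without P0 sample 1, P0 sample 2, P21 or P56 sample 1, with values of -1.59 to -1.26 for Aqp2 and -1.44 to -0.96 for Aqp3 and adjusted p from 0.0636 to 0.468; the Aqp2 peak was -1.84 (0.367) without P0 sample 1 and -1.37 (0.0543) without P21. Markers of other cell types moved in both directions in Endo, where adult nuclei were shallower (a median of 2099 to 2441.5 open peaks in adult samples and 6508.5 to 7195.5 at P0). In unscaled shares, the 3 PC markers summed to between 16.0% and 16.7% at P0 and 4.07% to 5.57% in adult, and the 3 IC markers to 9.95% to 10.8% and 2.25% to 4.53%. None of the 3 tested PC and IC markers was called in Endo. On the scaled levels of the test, the NP markers Cited1 and Six2 fell (by 1.55 and 1.46 on the log2 scale), while 1 of 2 LOH markers (Umod by 2.09), 1 of 2 DCT markers (Slc12a3 by 0.97) and all 3 Endo markers rose, although the summed share of the 3 Endo markers was lower in adult, at 117.6% to 136.9% against 168.4% to 181.4%. The other LOH marker, Slc12a1, was not called (0.35, adjusted p = 0.450), and the other DCT marker, Pvalb, was too sparse for a test, at 1.52% and 0.971% at P0 and 0%, 0% and 0.464% in adult. The part of these markers in the falls was not tested.

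Markers also moved with age in the distal clusters. In PC the 3 PC markers rose with age (Fxyd4 by 1.08, Hsd11b2 by 0.93 and Scnn1g by 0.62 on the log2 scale, adjusted p = 6.08e-04, 0.00162 and 0.00798), together with 1 of 2 CNT markers, Trpv5, and 1 of 2 LOH markers, Umod, while 2 of 3 Endo markers, 1 of 3 NP markers (Cited1) and 1 of 2 Podo markers (Nphs1) fell. The 3 PC markers summed to 64.5% to 74.0% of nuclei at P0 and 57.9% to 134.4% in adult, and the 3 IC markers to 19.5% to 20.3% and 8.27% to 14.6%. In CNT both CNT markers rose, as did 1 of 2 DCT and 1 of 2 LOH markers and 1 of 3 PC markers, and 2 of 3 Endo markers fell. In LOH both LOH markers (Slc12a1 by 1.89 and Umod by 2.25) and Slc12a3 (1.92) rose. Markers of all other lists but PCT had calls in the other direction: all 3 NP, both Podo, both CNT and both stromal markers fell, as did 2 of 3 Endo, 2 of 3 PC (Hsd11b2 by 0.65 and Scnn1g by 0.73), 1 of 3 IC, 1 of 2 PST, 1 of 2 DCT and 1 of 2 immune markers. The PC markers thus moved in opposite directions in PC and LOH, the clusters compared for Aqp2, Aqp3, Aqp4 and Avpr2 above. In PCT both PCT markers rose, as did 1 of 2 LOH (Umod), 1 of 2 DCT (Slc12a3) and 1 of 3 PC markers (Fxyd4 by 2.46), while 2 of 3 IC (Atp6v1g3 by 1.69 and Atp6v0d2 by 0.79), 1 of 2 PST (Slc22a7 by 1.77), 1 of 2 Podo, 1 of 3 Endo, 1 of 2 immune and 1 of 2 stromal markers fell. In PST 1 of 2 PST markers rose, and 1 of 3 Endo and 1 of 2 stromal markers fell. How far these shifts bear on the aquaporin changes in the same clusters was not tested.

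The genes around the vasopressin pathway, from 3 lists, were compared with the 12.4% of all tested genes that were higher in adult PC and the 16.6% that were higher at P0. The lists were written with earlier results of these data known and no set test was run, so their counts are a description. Of 14 genes of cAMP signalling and of vasopressin receptors other than Avpr2, which is a member and not in the list, 13 were tested, none rose and 1 fell: Adcy3, an adenylyl cyclase, was open in 35.0% and 37.1% of PC nuclei at P0 and in 8.74%, 6.02% and 15.6% in adult (-1.35 ± 0.20, adjusted p = 1.24e-04). Their median change was -0.06, against 0.02 for all genes. Adcy6, the cyclase best known for the response of principal cells to vasopressin and named here after its value was seen, gave 0.38 ± 0.14 (adjusted p = 0.0542).

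Of 18 genes for AQP2 traffic and turnover, 7 rose and none fell, with a median of 0.42. The 5 with the smallest p were Mal, which encodes an apical raft protein (0.62 ± 0.14, adjusted p = 0.00300), Snap23, a membrane fusion protein (0.65 ± 0.18, 0.0116), Rab11fip2, an adaptor of recycling endosomes (0.59 ± 0.17, 0.0170), Stub1, a ubiquitin ligase (0.43 ± 0.13, 0.0187), and Rab5a, a GTPase of early endosomes (0.40 ± 0.13, 0.0318). These changes are on scaled levels. Unscaled mean shares of open PC nuclei at P0 and in adult were 41.4% and 45.8% for Mal and 20.8% and 24.6% for Snap23. They were 21.9% and 24.8% for Rab11fip2, 41.1% and 41.0% for Stub1 and 45.8% and 45.3% for Rab5a. Of 9 transcription factor genes tied to Aqp2, 6 rose on the scaled levels and none fell, with a median of 0.50. Gata2 was open in 33.8% and 40.3% of PC nuclei at P0 and 52.4%, 33.8% and 69.3% in adult (0.94 ± 0.13, adjusted p = 8.11e-05), shares that overlapped. Elf3 (0.64 ± 0.13, adjusted p = 0.00194), Nfat5, the tonicity factor (0.66 ± 0.14, 0.00255), and Nr3c2, the mineralocorticoid receptor (0.50 ± 0.17, 0.0310), also rose. Their unscaled mean shares at P0 and in adult were 43.4% and 49.9%, 33.6% and 39.1%, and 70.3% and 70.6%. The 14 calls in the lists fell to 4 with DESeq2 and to 3 without either P0 sample. They fell to 9 with no filter on low counts and to 2 after thinning.

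Among the other aquaporin genes, Mip had no peak in its window, and Aqp8, Aqp9 and Aqp12 were tested in PC without a call (0.07 ± 0.29, -0.69 ± 0.44 and 0.52 ± 0.31). Aqp8 was most open in PST (15.9% ± 7.67) and PCT (14.4% ± 4.38), Aqp9, a glycerol channel of liver and leukocytes, in Stroma 2 (16.3% ± 5.03) and immune cells (13.4% ± 2.18), and Aqp12 in CNT (8.14% ± 2.50) and PC (8.00% ± 1.43).

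Across the 65 sums of sample and cluster, the genes with a profile most like Aqp1 and with no shared peak included Gm44579 (Pearson r = 0.90) and Olfr287 (0.89). For Aqp2 they were Gm45459 (0.74), Wfdc2 (0.73) and Calml3 (0.73), for Aqp3 4930434F21Rik (0.78), Gm4651 (0.74) and Scnn1g, a subunit of the epithelial sodium channel (0.74), and for Aqp4 Cndp1 (0.77), Pklr (0.74) and Ephx2 (0.72). For Aqp7 they were Slc13a4 (0.86), Plin1 (0.85) and Slc16a9 (0.82), and for Aqp11 Stra6l (0.81), Slc35a3 (0.77) and Anpep (0.77). Among the members themselves Aqp1 and Aqp7 were most alike (0.71), followed by Aqp2 and Aqp3 (0.58). The points share 5 libraries and differ in depth, so no p is given, and Aqp5, Aqp6 and Avpr2 had under 10 open nuclei per sum on average and were left out.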

How the data were processed

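Whole-kidney nuclei of 5 samples were profiled by snATAC-seq. The authors aligned reads to mm10 (GRCm38) with Cell Ranger ATAC 1.1.0, filtered barcodes, clustered nuclei with SnapATAC and Harmony, and called MACS2 peaks on the pooled fragments of each cell type. How doublets were treated is not given in the sources used here, and none were removed. The deposited matrix holds binarized counts, 1 where a nucleus had at least 1 fragment in a peak, so several fragments count once. Cluster and sample names came from the deposited annotation.

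For each sample and cluster, nuclei with at least 1 open peak in a gene window, or with a given peak open, were counted. Sums of at least 20 nuclei were tested with edgeR 4.0.16 (quasi-likelihood F-test, filterByExpr with a minimum count of 10, TMM), over all genes or peaks of a cluster, with Benjamini-Hochberg adjustment. Differences between clusters were tested as an interaction with the sample as a block. The scripts were tested on simulated data. Alternatives were DESeq2 1.42.0, other size factors, no filter, other windows, thinning, summed calls and leaving out each sample. Limits for a count of 0 use 3 nuclei. The SE of an edgeR log2 fold change was taken as its absolute value over the square root of the F statistic. The 95% intervals are this SE times the normal quantile. They are approximate, and can be narrower than the F-test implies and exclude 0 where the unadjusted p is above 0.05.

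All 9 members were named, with all 35 peaks, up to 5 called genes per list and direction with the smallest p, 4 other aquaporins, and the 3 genes of highest correlation per member. Some genes that these rules take are not reported here. The members and lists were chosen with earlier results of these data known. UMAP coordinates and the annotation of the single-cell RNA data were not used.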

Additional observations from a re-analysis of the deposited data

Results flagged for a closer look

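The change with age differed between clusters, by the interaction test, in 8 cases, given as differences of log2 fold changes. Between PC and CNT these were Aqp7 (3.29, on few open nuclei), Aqp3 (1.81) and Aqp4 (2.19). Between PC and LOH they were Aqp2 (2.40), Aqp3 (1.96), Aqp4 (1.39) and Aqp7 (2.30, which was lost without P0 sample 1, P0 sample 2 or P56 sample 2, at 2.23, 2.49 and 1.71). Between PCT and PST it was Aqp3 (1.37). Of all genes tested, 4.43% differed between PC and CNT, 19.9% between PC and LOH and 2.49% between PCT and PST. Of the 8 differences, 2 were kept in every alternative run (Aqp2 and Aqp3 between PC and LOH). The cause of these differences was not tested.

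Both small clusters outside the 13 main ones also had open windows above the limit that a count of 0 allows. Their shares pool the nuclei of all samples, unlike the means over samples given for the main clusters. In the cluster named PT_out, of 446 nuclei, Aqp1 was open in 44.2%, Aqp11 in 36.1%, Aqp7 in 21.5%, Aqp3 in 14.6%, Aqp4 in 10.1%, Aqp2 in 6.28%, Avpr2 in 2.02%, Aqp6 in 1.57% and Aqp5 in 1.12% of nuclei. In the cluster named NP_LOH, of 218 nuclei, Aqp1 was open in 29.8%, Aqp11 in 6.88%, Aqp7 in 6.42%, Aqp2 in 2.75% and Avpr2 in 1.83%. NP_LOH held 0 and 1 nuclei in P0 samples 1 and 2, 56 at P21, and 92 and 69 in P56 samples 1 and 2. No outlier test applied, since no group held 4 samples.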

How the results depend on the processing

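Of the 21 gene calls, 4 kept their direction and call in every alternative run that tested them, as did 4 of 31 peak calls and 2 of 8 differences between clusters. The gene calls were Aqp2 in PC and Aqp11 in LOH (14 runs), Aqp1 in NP (13 runs) and Aqp6 in Endo (12 runs). Adult nuclei of the NP cluster were low in the NP markers, as given above. Counts of calls, new calls included, were as follows. Pairs of gene and cluster went from 21 to 9 with DESeq2, 2 after thinning and 12 with 500 bp around the gene start (10 of the 21 kept), and to between 7 and 27 with 1 sample left out. Pairs of peak and cluster went from 31 to 19 with DESeq2, 36 with no filter (13 of the 31 kept) and 5 after thinning, and to between 8 and 40 with 1 sample left out. List genes went from 14 to 4, 2 and, with no filter, 9, and to between 3 and 20 with 1 sample left out. Differences between clusters went from 8 to 2 with DESeq2, 2 after thinning and 4 with 500 bp (3 of the 8 kept), and to between 3 and 8 with 1 sample left out. Fewer nuclei and features entered the thinned fits. Without a P0 sample, the lone P0 sample is assumed to vary like the adults. Values that changed sign were Aqp11 in PCT (-0.19 thinned, -0.012 with summed calls, and -0.077 to 0.12 with 1 sample left out, negative without P0 sample 1 or P56 sample 2), Aqp11 in PST (-0.12 with 500 bp), Aqp5 in PC (-0.10 to 0.39 with 1 sample left out, negative without P21) and, with a 10 kb window, Aqp6 in LOH (0.065) and PCT (0.18) and Avpr2 in CNT (-0.38); the cause was not tested. The order of clusters by share kept its first cluster for 7 of 9 genes after thinning, and for 7 of 9 at P0 alone. With thinning and P0 alone together, only Aqp6 kept its first cluster, IC. There PCT stood first for Aqp1, Aqp7 and Aqp11, DCT for Aqp2, CNT for Aqp3, Aqp5 and Avpr2, and PC for Aqp4. Replicate numbers did not pair the samples (correlation of differences 0.0125 to 0.178 over 13 clusters); a fit with the replicate block called 19 pairs of gene and cluster, 27 pairs of peak and cluster and 11 list genes.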
